A study of Mus musculus with 48 samples.

Results

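The gene expression of the wild-type (WT) mouse whole brain was compared between 17 and 10 months of age on mRNA microarrays. The samples were chosen by their labels (WT, whole brain, mRNA array): 3 of 10 months and 3 of 17 months, 6 of the 48 samples of the series, of which 24 are mRNA arrays. All were male C57BL/6J mice, untreated as far as the labels say. The study set them beside male Tg2576 mice, a transgenic line that expresses a human amyloid precursor protein with the Swedish mutation from a hamster prion promoter, and profiled the cortex or the whole brain of both genotypes at both ages. The 10-month age was described as the early phase of amyloid accumulation in the transgenic line and 17 months as its plateau, and the WT mice were the controls of the same ages. The labels number the samples within a group but do not say whether each is 1 animal, so p-values measure the spread between these samples, which may be technical.

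In the aging mouse brain, astrocytes and microglia are known to turn on reactive and immune genes such as those of complement, antigen presentation and the glial cytoskeleton, while proliferating and newborn cells become rare. Myelin, blood vessels, the circadian clock and mitochondria are among the systems often followed with age. A whole brain extract holds all of these cells at once, together with whatever of the brain stem, olfactory bulb, pituitary and blood the dissection kept. In such bulk tissue, more cells of a type and more RNA per cell cannot be told apart.

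The arrays were hybridised on 3 slides, and age and slide cannot be told apart in WT whole brain: all 3 arrays of 10 months were on slide 2 and all 3 of 17 months on slide 3. Every difference below is therefore between ages and between slides at once. Pairs of ages on 1 slide exist elsewhere: Tg2576 whole brain on slide 3 has 2 arrays of 10 months and 3 of 17 months, and WT cortex on slide 1 has 3 and 2. Neither shares an array with WT whole brain, and their values stand beside the main results. Only Tg2576 whole brain at 10 months bridges slides 2 and 3, with 1 and 2 arrays, and a model of all 24 arrays with slide as a term takes its slide correction from them. The 75th percentile signal was between 642 and 761 on the 6 arrays and between 34169 and 38462 probes were well above background. Correlations over the tested probes ran from 0.992 to 0.996 within an age and from 0.984 to 0.990 between ages.

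Levels are log2 signals minus the 75th percentile of the array, so that 0 is that percentile, and levels of different genes are not compared. Of 37639 probes tested, 10479 (27.8%) passed an adjusted p of 0.05 in limma: 4774 were higher and 5705 lower at 17 months, and 570 of them differed over 2-fold. At 18396 probes (48.9%) the 3 arrays of one age did not overlap with those of the other, so a lack of overlap alone marks little. At 1 probe per gene, 3066 of 15851 genes (19.3%) were higher and 1733 (10.9%) lower, and the median difference of all genes was 0.05 on the log2 scale. Centring on the median of each array in place of the 75th percentile gave 6854 higher and 3353 lower probes, so the balance of directions depends on the scaling. With slide as a term, 960 of 37582 probes (2.55%) passed in the model of 24 arrays. In the model of the 12 whole brain arrays 84 of 37619 passed. Of the listed genes described below, 32 passed with slide as a term over 24 arrays and 1 over 12 arrays.

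**Figure D1:**
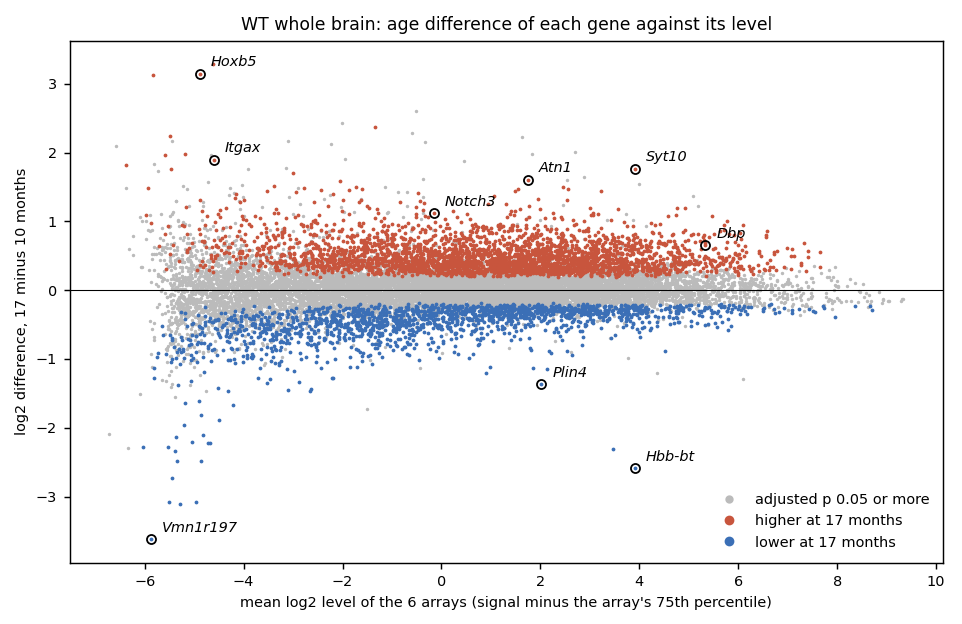
Difference between 17 and 10 months (vertical axis, log2) against the mean level of the 6 WT whole brain arrays (horizontal axis, log2 signal minus the 75th percentile), 1 point per gene. Red and blue points passed the adjusted threshold (3066 higher, 1733 lower). Values below background are plotted as measured, so the dim genes at the left, Hoxb5 and Vmn1r197 among them, have no exact height, while Hbb-bt (-2.58) is a bright gene that fell.

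A neuronal marker was looked at before the results, which cannot tell whole brain from another neuronal tissue such as cortex. Snap25, a presynaptic protein of all neurons, lay between 6.30 and 6.54 on the 6 arrays, all well above background. It did not differ detectably between the ages (0.12 ± 0.07, log2 difference ± SE, n = 3 per age, adjusted p = 0.232).

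Levels of pituitary and olfactory markers varied widely among samples of one age. The pituitary hormone prolactin (Prl) had levels of -0.68, 4.55 and 7.38 at 10 months and 1.83, 3.62 and 3.72 at 17 months, and growth hormone (Gh) ran from -4.94 to 2.59 and from -2.89 to -0.20. The 10-month samples alone spanned more than the gap between the ages, and neither gene passed the test (adjusted p = 0.811 and 0.87). None of the 6 pituitary genes tested passed. Of 14 markers of the olfactory bulb and its nerve none passed, their mean level per array running from -2.79 to -0.33 at 10 months and from -2.70 to -1.45 at 17 months. The smallest p among them belonged to Nmb (-0.84, adjusted p = 0.0985) and Doc2g (-0.91, adjusted p = 0.282). Ttr, the thyroxine carrier made by the choroid plexus, was at 3.73, 5.09 and 4.43 and then at 4.55, 4.44 and 4.31, and none of 12 choroid plexus genes passed.

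Some genes of the hindbrain list were higher at 17 months. Hox genes keep the position code of the hindbrain and spinal cord and are nearly silent in the forebrain. Hoxb5 was at -6.94, -6.02 and -6.42 at 10 months, not well above background on any array, and at -3.27, -3.83 and -2.85 at 17 months, which is at least 4.41-fold higher (adjusted p = 0.00456). Hoxb4 was at least 2.26-fold higher and Hoxa3 at least 1.83-fold higher by the same reckoning. All 3 genes entered the test only through the 17-month arrays, so their detection at that age alone was in part set by the filter. Of 14 listed hindbrain markers 10 were tested, and Hoxa3 and Hoxb5 entered the test only through the 17-month arrays. Of the 8 measured at both ages 3 were higher and none lower, against 19.3% of all genes higher, with a median of 1.32. The 3 were the glycine receptor subunit Glra1 (1.43), the vesicular acetylcholine transporter Slc18a3 (1.21) and the acetylcholine-synthesising enzyme Chat (0.48). In Tg2576 whole brain, Hoxb5 was well above background on 1 of 3 arrays at 10 months (the one on slide 2) and on 1 of 3 at 17 months, and Hoxb4 on none. Within slide 3 in Tg2576 mice all 7 list members tested were positive (median 0.46). In cortex 4 of 5 were positive within slide 1 (median 0.46).

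**Figure D2:**
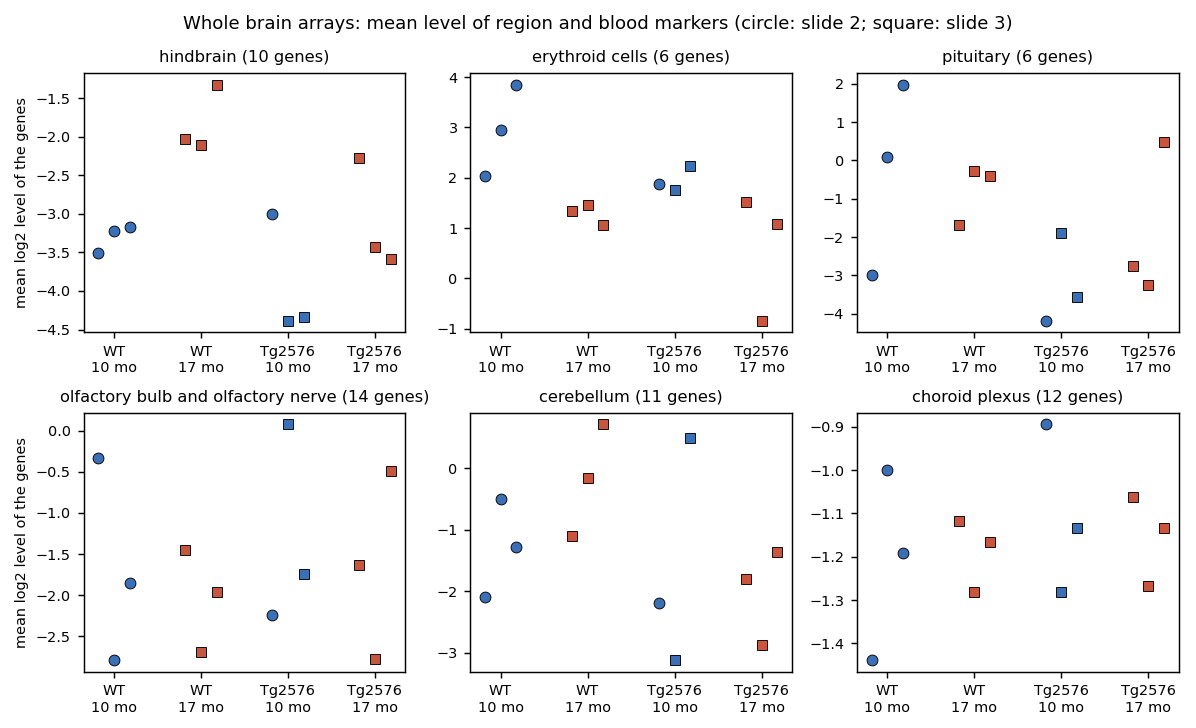
Mean level of the genes of 6 marker lists on each of the 12 whole brain arrays (vertical axis, log2), by genotype and age, with circles for slide 2 and squares for slide 3. The WT hindbrain mean lies between -3.51 and -3.17 at 10 months and between -2.10 and -1.33 at 17 months. It includes Hoxa3 and Hoxb5, which entered the test only through the 17-month arrays, so its gap is in part set by the filter. The erythroid mean falls from between 2.03 and 3.84 to between 1.06 and 1.45, and the pituitary and olfactory means overlap between ages.

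Counts for other regions are small and are given as descriptions, several of them near or under the 19.3% of all genes that were higher. Cerebellar genes had a median of 0.97 and all 11 were positive, but only Zic1 (0.95, adjusted p = 0.016) passed. Within slide 3 in Tg2576 mice the median of 10 cerebellar genes was -0.48, and it turned to 0.98 without 10-month replicate 3 and was -2.11 without 10-month replicate 2, so it gives no direction. Of 12 striatal genes 3 were higher: Syndig1l (0.87), the opioid precursor Penk (0.48) and the dopamine signalling regulator Ppp1r1b (0.50). Of 10 thalamic genes 3 were higher, namely Lef1 (0.70), Tcf7l2 (0.60) and Prkcd (0.51). Among 10 cortical genes 3 were higher, Cux2 (0.65) and Nr4a2 (0.57) among them, among 7 hippocampal genes Dsp (0.69), Prox1 (0.44) and C1ql2 (0.38), and of 9 midbrain dopamine genes Nr4a2 and Ret (0.55). None of these 5 lists held a lower member. Of 13 hypothalamic peptide genes the stress peptide Crh (-0.49) and the feeding peptide Pmch (-0.39) were lower. The part of region content in the other results was not tested.

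The 15 rises that the naming rule took by fitted difference, in which values below background have no order, held Hoxc4, Hoxb5, Hoxb4, Hoxa3 and 3 further developmental transcription factors, Lhx4, Onecut3 (at least 1.79-fold higher) and Skor1 (1.5). Hoxc4 was well above background on 1 of the 10-month arrays (levels of -7.75, -4.81 and -6.23) and on all 3 of 17 months (-3.04, -3.33 and -2.58), and Lhx4 likewise on 1 and 3. Syt10 and Syt2, calcium sensors of vesicle release, followed at 1.77 and 1.58. The corepressor Atn1 rose from 1.15, 1.02 and 0.66 to 2.58, 2.53 and 2.53, Prr12 from -3.45, -3.85 and -4.24 to -2.09, -2.16 and -2.20, the Wnt effector Tcf7l1 by 1.51 and the transcriptional coactivator Zmiz1 by 1.49. The naming rule took only genes whose ages did not overlap. Atn1, Prr12, Tcf7l1 and Zmiz1 were also higher at 17 months within slide 3 in Tg2576 whole brain, by 1.24, 1.57, 0.96 and 1.37 (adjusted p = 0.0419, 0.0264, 0.0387 and 0.0166). These 4 passed with slide as a term. Ndufa4l2, a mitochondrial gene typical of mural cells and hypoxia, rose by 2.37 (adjusted p = 0.0433), with 1 of the 10-month arrays (-4.15) far under the other 2 (-1.61 and -1.83).

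The 15 falls taken by fitted difference were mostly dim genes with known roles outside the brain, and since most have only a bound, larger measured falls can lie outside them. The vomeronasal receptor Vmn1r197 had levels of -3.85, -3.58 and -4.78 at 10 months and -7.85, -8.02 and -7.19 at 17 months, where no array was well above background, which is at least 2.71-fold lower (adjusted p = 0.00451). The testis chaperone Dnajb8 was at least 4.23-fold lower, the epididymal protease inhibitors Wfdc6b and Wfdc6a at least 3.43-fold and 2.65-fold, the phospholipid enzyme Plaat5 at least 2.89-fold and the defensin Defb26 at least 2.66-fold. The kinesin Kif12 (at least 3.71-fold), the ketone body enzyme Oxct2b (3.71-fold), the hair keratin protein Krtap12-1 (2.43-fold), the apoptosis regulator Bcl2l14 (2.24-fold) and the vomeronasal receptor Vmn2r46 (2.17-fold) were bounded likewise. The bounded genes entered the test only through the 10-month arrays, so their detection at that age alone was in part set by the filter. The counts of signs below describe genes chosen in this way. The desmosomal Dsg1c and the class I gene H2-M11 were well above background on 1 and 2 of the 17-month arrays. On the 10-month arrays these 13 genes lay between -5.04 and -2.95. With the 2 globins described next they make the 15, of which 13 had the same sign in Tg2576 whole brain within slide 3, where 8 passed, and 14 had it in WT cortex within slide 1, where no probe passed. Vmn2r46 (0.19 and 0.16) had the opposite sign in both and Oxct2b (0.46) in the first.

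Among the 15 falls taken by the naming rule, the bright genes were red cell genes. Bright genes outside the 15 fell too, among them Plin4, described below. The beta globin Hbb-bt was at 4.11, 5.35 and 6.13 at 10 months and 2.75, 2.81 and 2.28 at 17 months, a fall of 2.58 ± 0.50 (SE, n = 3 per age, adjusted p = 0.0156). Hbb-b2 fell by 2.31 and the red cell anion exchanger Slc4a1 by 0.86. The 10-month samples were spread widely, yet none reached down to the 17-month samples for these 3 genes. Ages likewise did not overlap at 48.9% of all probes tested. The alpha globins Hba-a1 and Hba-a2 and the haem enzyme Alas2 were lower by 1.21, 1.29 and 1.72 without passing (adjusted p = 0.161, 0.102 and 0.0819). Near-identical globin copies can share probe signal. All 6 genes tested were negative (median -1.51), as they were within slide 3 in Tg2576 mice (median -1.32) and within slide 1 in cortex (median -2.02). Hbb-bt differed there by -2.21 and -2.22, without passing (adjusted p = 0.208 in Tg2576 mice). Tg2576 17-month replicate 2 was far under its group, and without it the difference was -1.26 for Hbb-bt and the median -0.53 for the list, with 1 of 6 positive.

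Some glial and immune genes were higher at 17 months. The counts of higher genes among astrocyte (3 of 12), microglial (3 of 17), complement (2 of 12), interferon (4 of 18) and cytokine (3 of 13) genes lie near the 19.3% of all genes, so they are no result about those lists. Gfap, the intermediate filament of astrocytes, rose from 2.30, 2.36 and 2.25 to 2.90, 2.88 and 3.1 (0.66 ± 0.08, 1.58-fold, adjusted p = 0.0058), and its 3 probes ranged from 0.26 to 0.66. Vim, a second filament of reactive astrocytes, rose by 0.94 and the astrocyte factor Sox9 by 0.70. The ages did not overlap for any of the 3, as at 48.9% of all probes tested. The remaining 9 of 12 astrocyte genes did not pass. Within slide 3 in Tg2576 mice Gfap and Vim were higher by 0.69 and 0.79 (adjusted p = 0.0399 and 0.0396), and within slide 1 in cortex by 0.09 and 0.16.

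**Figure D3:**
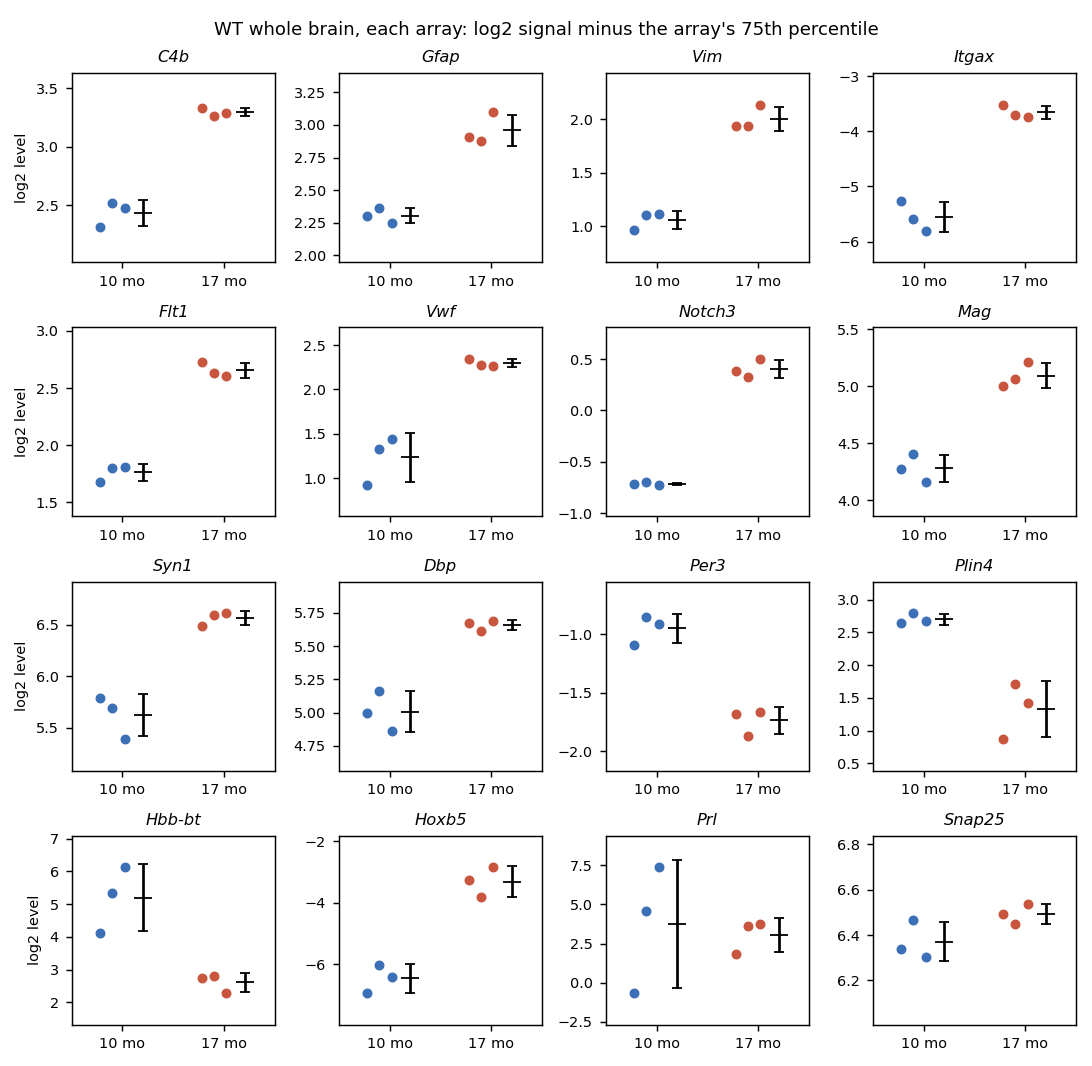
Level of 16 genes on each of the 3 arrays of 10 months (blue) and 3 of 17 months (red), log2 signal minus the 75th percentile, each panel with its own vertical scale. Black bars give the mean and SD. C4b, Gfap, Vim, Itgax, Flt1, Vwf, Notch3, Mag, Syn1, Dbp and Hoxb5 lie higher at 17 months on every array, Per3, Plin4 and Hbb-bt lower, while Prl and Snap25 overlap. Ages did not overlap at 48.9% of all probes tested.

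Microglial identity genes did not move one way. Of 17, 3 were higher, among them Olfml3 (0.42) and Selplg (0.30), and 2 lower, C1qb (-0.51) and Fcrls (-0.36), and the median was 0.04. Genes of activated microglia had a median of 0.44, or 0.27 with normexp background correction, with 7 of 14 higher and none lower, against 19.3% of all genes higher. Of these 14, 3 entered the test only through the 17-month arrays, and of the other 11 5 were higher. The integrin Itgax, a marker of activated microglia, went from -5.26, -5.59 and -5.81, never well above background, to -3.52, -3.70 and -3.74, at least 3.34-fold higher (adjusted p = 0.00394). The chemokine Ccl4 was at least 2.14-fold higher and was well above background on 2 of the 17-month arrays alone. Axl, a receptor for dying cells, rose by 0.41 and the lectin Lgals3 by 0.57, and the lysosomal protease inhibitor Cst7 (0.65), the tetraspanin Cd9 (0.51) and Cd52 (0.37) complete the 7. Itgax was also 2.02 higher in Tg2576 mice within slide 3 (adjusted p = 0.0382) and 1.34 in cortex within slide 1.

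Complement genes split. C4b, the fourth complement component, rose from 2.31, 2.52 and 2.47 to 3.33, 3.26 and 3.29 (0.86 ± 0.08, 1.82-fold, adjusted p = 0.00402). The protease C1ra rose by 0.36, while C1qb was 1 of 2 lower members, and 8 of 12 did not pass. C4b was 1.65 higher in Tg2576 mice within slide 3 (adjusted p = 0.0303) and 1.02 in cortex within slide 1, and it passed with slide as a term (1.1, adjusted p = 0.016). Of 15 antigen presentation genes 4 were higher: the peptide transporter Tap2 (0.94), its partner Tapbp (0.54), the immunoproteasome subunit Psmb9 (0.46) and the class I heavy chain H2-K1 (0.45, and 0.11 at its second probe). Among 13 cytokines and chemokines Cxcl12 (1.32), Cxcl10 (1.20) and Tgfb1 (1.04) were higher. A second Cxcl12 probe gave 0.12. Of 18 interferon response genes Ifitm3 (0.96), Oasl2 (0.62), Bst2 (0.42) and Isg15 (0.37) were higher, and 2 of the 18 were positive in cortex within slide 1. Of 15 lysosomal genes 4 were higher, among them Laptm5 (0.93), progranulin (Grn, 0.67) and Gusb (0.23). None of these 4 lists had a lower member, and 19.3% of all genes were higher. None of 9 blood leukocyte genes passed, the smallest p belonging to Cd79a (-0.41, adjusted p = 0.0625) and Gzma (-0.17, adjusted p = 0.383).

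Vascular genes were also higher in part. Of 13 endothelial markers 7 were higher and 1 lower, against 19.3% and 10.9% of all genes, with a median of 0.40. Flt1, a receptor for vascular endothelial growth factor, rose from 1.68, 1.8 and 1.81 to 2.73, 2.63 and 2.60 (0.89 ± 0.07, adjusted p = 0.00394). Vwf, the carrier of clotting factor in endothelium, rose from 0.92, 1.33 and 1.45 to 2.34, 2.27 and 2.27 (1.06 ± 0.14, adjusted p = 0.00635). No array of one age reached the other in either gene, as at 48.9% of all probes tested. The glucose transporter Slc2a1 (0.73), the adhesion molecule Esam (0.57), the tight junction protein Cldn5 (0.90), Cdh5 (0.76) and the efflux pump Abcb1a (0.40) were the other rises, and Ly6c1 (-0.37) was the fall. Among 10 mural cell genes Notch3, a receptor that maintains smooth muscle and pericytes, rose from -0.72, -0.70 and -0.73 to 0.39, 0.33 and 0.50 (1.12 ± 0.07, 2.17-fold, adjusted p = 0.00394). Vtn (0.68) and Pdgfrb (0.60) were higher and Higd1b (-0.29) lower. Notch3 was 0.998 higher in Tg2576 mice within slide 3 (adjusted p = 0.0312), 0.91 in cortex within slide 1, and 1.32 with slide as a term (adjusted p = 0.000123). The lists followed less: within slide 3 in Tg2576 mice 7 of 13 endothelial and 8 of 10 mural cell genes were positive (medians 0.32 and 0.26). In cortex within slide 1, 7 of 13 and 5 of 10 were positive (medians 0.03 and -0.01).

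Genes of the extracellular matrix had 6 higher and 2 lower members of 15, against 19.3% and 10.9% of all genes. The collagen chains Col1a1 and Col1a2 rose by 0.87 ± 0.18 and 0.78 ± 0.09, Igf2 by 1.14, Aebp1 by 0.81 fibronectin (Fn1) by 0.37 and Sparc by 0.61. Dcn (-0.44) and Col5a2 (-0.33) were lower. Igf2 was 0.26 higher in Tg2576 mice within slide 3 and 0.35 lower (-0.35) in cortex within slide 1.

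Among 13 myelin genes 4 were higher and none lower, against 19.3% and 10.9% of all genes. Mag, an adhesion protein of the inner myelin layer, rose from 4.28, 4.40 and 4.16 to 5.0, 5.06 and 5.22 (0.81 ± 0.09, adjusted p = 0.00508). Opalin (0.64), the gap junction protein Gjb1 (0.52) and Mobp (0.51) followed. Mobp has 3 tested probes, from -0.06 to 0.51. Of 10 genes of oligodendrocyte precursors and newly formed oligodendrocytes Enpp6 (0.78), the precursor proteoglycan Cspg4 (0.75), Bcas1 (0.52) and Bmp4 (0.23) were higher. Dcx, the microtubule protein of newborn neurons, was at 0.72, -0.03 and 0.28 and then 0.27, 0.08 and 0.08, which overlap (adjusted p = 0.51), though its 3 probes ranged from -0.92 to -0.18. Of 12 newborn neuron genes Sox11 (-0.36) and Tubb2b (-0.23) were lower and none higher, while the median was 0.20, or -0.29 with slide as a term. The division markers Mki67 (-0.68) and Birc5 (-0.32) were the lower 2 of 5 proliferation genes tested. Of 8 ependymal genes the cilia factor Foxj1 (0.80) was higher, and of 5 retinal and pineal genes Sag (-0.40) was lower. The lipocalin Apod, which often rises with age in brain, was at 6.13, 6.41 and 6.07 and then 6.13, 6.15 and 6.50 (0.06 ± 0.14, adjusted p = 0.781).

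**Figure D4:**
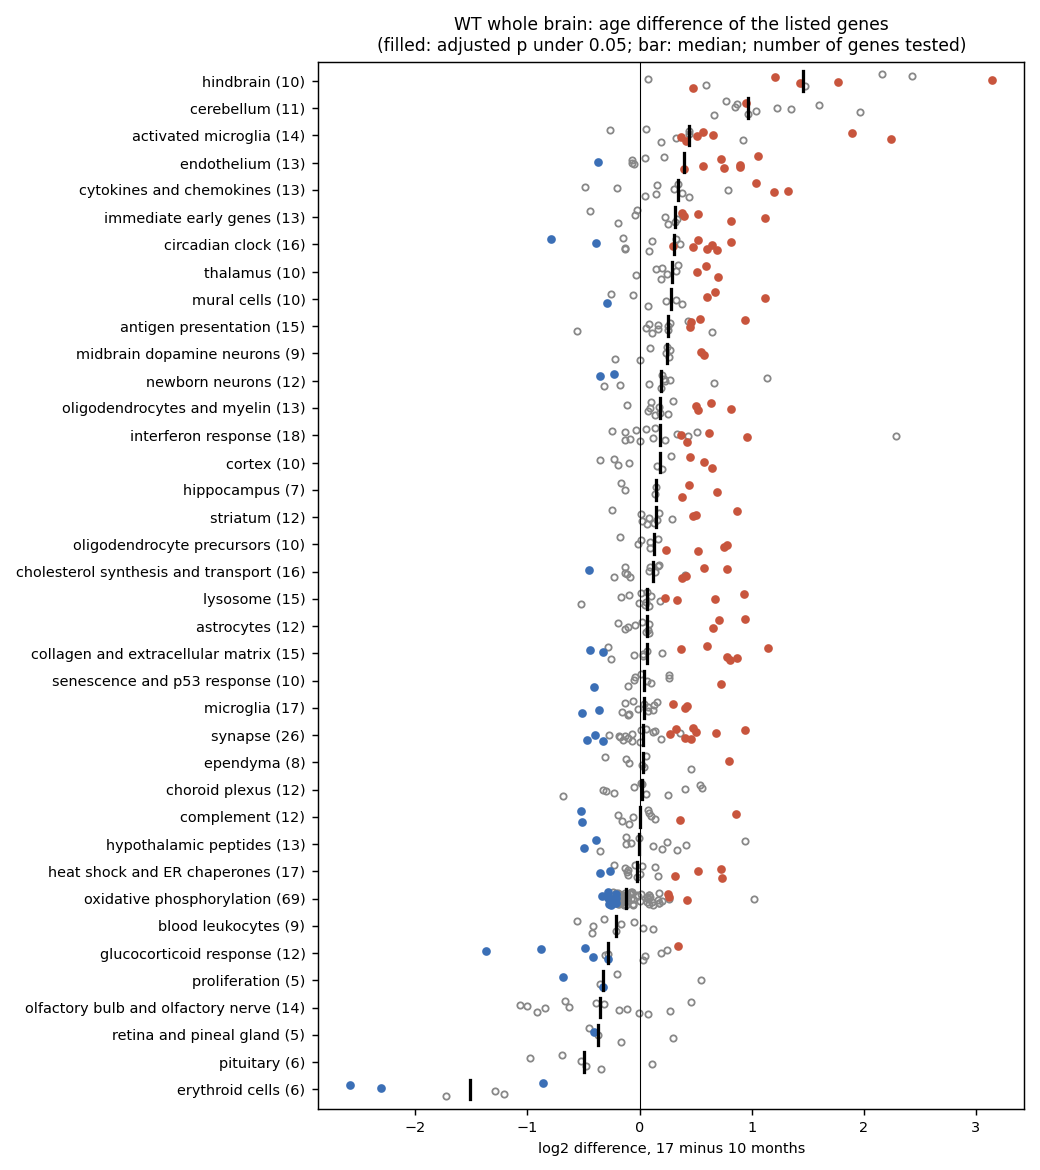
Difference between 17 and 10 months (horizontal axis, log2) for each tested gene of 38 lists, ordered by the list's median (black bar). Filled points passed the adjusted threshold, red for higher and blue for lower. The lowest median is that of erythroid genes (-1.51) and the highest that of hindbrain genes (1.45), 2 of which entered the test only through the 17-month arrays.

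Over the 510 distinct listed genes that were tested, 20.98% were higher and 8.24% lower, near the 19.3% and 10.9% of all genes.

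Of 26 synaptic genes 8 were higher and 3 lower, against 19.3% and 10.9% of all genes, with a median of 0.03. Syn1, which tethers synaptic vesicles, rose from 5.79, 5.69 and 5.39 to 6.49, 6.60 and 6.61 (0.94 ± 0.12, 1.92-fold, adjusted p = 0.00549), and in Tg2576 mice within slide 3 it was also 0.94 higher (adjusted p = 0.0301). Among the rest, the vesicle proteins Vamp2 (0.48) and Syp (0.33) were higher. Immediate early genes, which neuronal activity turns on within minutes, had 5 higher members of 13 and none lower, against 19.3% of all genes higher. Egr4 rose from 1.78, 1.88 and 1.45 to 2.73, 2.88 and 2.85 (1.12 ± 0.12) and Egr1 from 3.02, 3.17 and 2.91 to 3.8, 3.94 and 3.82 (0.82 ± 0.09). Jun (0.52), Fosb (0.39) and Junb (0.38) were the others, while Fos was at 0.10, -0.32 and -0.05 and then 0.08, 0.12 and 0.22 (adjusted p = 0.191). In Tg2576 mice within slide 3 6 of the 13 were positive.

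Clock genes gave 7 higher and 2 lower members of 16, against 19.3% and 10.9% of all genes, with a median of 0.31. In the clock, CLOCK and its partner BMAL1 (Arntl) drive E-box genes such as Per, Cry, Nr1d1 and Dbp, whose products then hold them back, and the levels turn over each day. The time of day of sampling is not given in the sources used here. Dbp, an output factor, rose from 5.0, 5.17 and 4.86 to 5.67, 5.62 and 5.69 (0.65 ± 0.09, adjusted p = 0.00689). Bhlhe40 (0.69), the CLOCK inhibitor Ciart (0.60), the period gene Per1 (0.52), the repressor Nr1d1 (0.81), Cry2 (0.30) and Cry1 (0.48, adjusted p = 0.0499) were also higher. Per3 fell from -1.09, -0.85 and -0.91 to -1.68, -1.86 and -1.66 (-0.79 ± 0.09, adjusted p = 0.00529), and Npas2 fell by 0.39. Clock (-0.13) and Arntl (0.09) did not pass. Within slide 3 in Tg2576 mice Dbp and Nr1d1 were higher by 0.67 and 0.96 (adjusted p = 0.0387 and 0.0382), and in cortex within slide 1 by 0.59 and 0.64. Per3 was 0.34 higher within slide 3 in Tg2576 mice and -0.16 in cortex.

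The promoters of Per1 and Ciart are shown because both genes rose and their windows hold the E-box that the clock factors bind. Each runs from 250 bases before to 50 after a RefSeq gene start in GRCm38.p6, 5′ to 3′ on the gene's strand, with the letters CACGTG (the same on both strands) in capitals.
Per1, chr11:69098699-69098998, plus strand: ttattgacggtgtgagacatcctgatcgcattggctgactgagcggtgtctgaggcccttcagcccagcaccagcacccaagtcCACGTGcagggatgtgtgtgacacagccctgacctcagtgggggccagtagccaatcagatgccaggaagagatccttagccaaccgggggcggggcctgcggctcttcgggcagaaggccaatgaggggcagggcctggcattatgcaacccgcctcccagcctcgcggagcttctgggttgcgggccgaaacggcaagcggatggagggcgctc
Ciart, chr3:95882179-95882478, minus strand: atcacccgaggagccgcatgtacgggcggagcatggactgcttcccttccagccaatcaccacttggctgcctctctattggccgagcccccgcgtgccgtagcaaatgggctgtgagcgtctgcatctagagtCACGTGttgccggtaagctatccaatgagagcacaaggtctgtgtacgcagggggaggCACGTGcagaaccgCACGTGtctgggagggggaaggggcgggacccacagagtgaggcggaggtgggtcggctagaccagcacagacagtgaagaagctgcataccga
The motif occurred once in this Per1 window, not at all in a second Per1 window of the table, and 3 times in that of Ciart. It was in 6 of the 19 windows of clock genes, against 7.15% of all 32851 windows. By gene, it was in at least 1 window of 5 of the 14 clock genes that have one in the table. Cry1, which rose, and Bhlhe41 and Tef, which did not pass, were the others with a match. The windows of Dbp, Nr1d1 and Cry2, which rose, and of Per3 and Npas2, which fell, held none. A match is a description of the letters and shows no binding.

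Genes that glucocorticoids induce were lower in part. Of 12, 5 were lower and 1 higher, against 10.9% and 19.3% of all genes, with a median of -0.28. Plin4, a coat protein of lipid droplets, fell from 2.64, 2.79 and 2.67 to 0.87, 1.72 and 1.42 (-1.37 ± 0.21, adjusted p = 0.00873). Sult1a1 (-0.88), the anti-inflammatory Tsc22d3 (-0.49), Hif3a (-0.41) and the receptor cochaperone Fkbp5 (-0.28) were lower, and Zbtb16 (0.34) higher. The 17-month arrays all lay under the 10-month ones for Plin4, and ages did not overlap at 48.9% of all probes tested. In cortex within slide 1, 1 of the 12 was positive and Plin4 differed by -1.48, whereas in Tg2576 mice within slide 3 8 of the 12 were positive and Plin4 differed by 0.27.

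Oxidative phosphorylation genes moved little. Of 69 tested, 3 were higher and 11 lower, against 19.3% and 10.9% of all genes, with a median of -0.12 and 21 positive. The complex I subunit Ndufs4 (-0.33) and the ATP synthase subunit Atp5c1 (-0.26) were among the lower, and Ndufa10 (0.42), Ndufb6 (0.26) and the complex II subunit Sdhc (0.26) were the higher. Their mean level overlapped between ages, from 5.51 to 5.63 at 10 months and from 5.47 to 5.54 at 17 months. Of 17 heat shock and chaperone genes the cochaperone Bag3 (0.74), the small heat shock protein Hspb1 (0.73) Hspa1a (0.52) and Cryab (0.31) were higher, and Hsp90aa1 (-0.35) and Hspa5 (-0.26) lower. In the cholesterol list of 16, 4 were higher, among them the synthesis enzyme Lss (0.57) and the exporter Abca1 (0.37), and Insig1 (-0.45), a brake on sterol synthesis, was lower. With slide as a term the signs of Abca1, Insig1, Zbtb16 and Olfml3 turned. Among 10 genes of senescence and the p53 response the cell cycle inhibitor Cdkn2b (0.73) was higher and Ccng1 (-0.41) lower.

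The 2 within-slide comparisons were set against the calls of WT whole brain. In Tg2576 whole brain on slide 3, 1860 of 37897 probes (4.91%) passed. Of the 105 listed genes that were higher in WT whole brain and tested there, 96 were positive and 32 passed, and of the 42 lower genes 33 were negative and 1 passed. In WT cortex on slide 1, 84 of 104 and 36 of 42 had the same sign, and no probe passed (10898 had an unadjusted p under 0.05). Over all genes called in WT whole brain, 2756 of 3049 higher and 1296 of 1725 lower genes had the same sign in Tg2576 mice, and 2647 of 3049 and 1345 of 1730 in cortex. Over all probes tested in both, 66.1% had the same sign in Tg2576 mice and 65.6% in cortex, against 78.8% and 79.6% of the probes called in WT whole brain. These shares are descriptions, since probes are not independent. Olfml3 is an exception: it was 0.42 higher in WT whole brain and lower in both (-0.84, adjusted p = 0.0394, and -0.64), and its level in Tg2576 mice at 10 months was 1.16 higher on slide 3 than on slide 2.

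**Figure D5:**
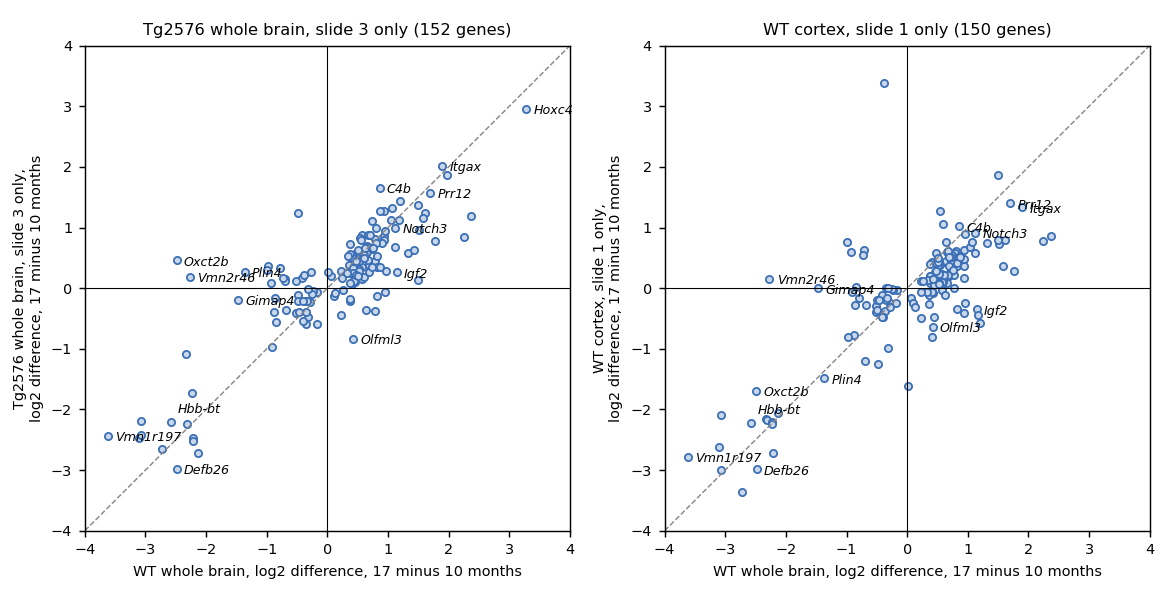
Difference between 17 and 10 months of the named genes in WT whole brain (horizontal axis, log2) against Tg2576 whole brain on slide 3 (left, 152 genes) and WT cortex on slide 1 (right, 150 genes). The dashed line marks equal values. Itgax, Prr12, Notch3, C4b, Vmn1r197, Defb26 and Hbb-bt lie on the same side of zero in all 3, while Plin4 differs between the panels and Olfml3 lies below zero in both.

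Whether the age difference itself differed was tested in 2 ways. Between WT and Tg2576 whole brain, none of 38478 probes passed in limma (6448 had an unadjusted p under 0.05 and the smallest adjusted p was 0.189), which does not show that the genotypes aged alike. With slide as a term 9 probes passed. Between whole brain and cortex of WT mice, 281 of 39824 probes (0.706%) passed, 109 of them with a positive value (whole brain minus cortex). The count was 0 without any 1 of 4 of the whole brain arrays and 4 with a replicate block. Hoxb5 and Hoxb4 were among them, and their probes were not well above background on any WT cortex array. Ages lie on different slides in whole brain and mostly on the same slide in cortex, so tissue and slide cannot be told apart in this term.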

How the data were processed

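Total RNA of each sample was labelled with Cy3 and hybridised to 1-colour Agilent mouse gene expression arrays. The deposited files hold the processed signal intensity of each spot, background-corrected by the authors with Agilent Feature Extraction 10.7.3.1. The authors' table of log2 values, also deposited, equals the same log2 intensities minus the 75th percentile of each array (within 0.01 for 99.8 to 99.9% of values), and was an alternative. Here, control and outlier spots were left out, spots of a probe averaged, and log2 intensities centred on each array's 75th percentile. Probes well above background on 2 or more arrays of a group were tested with limma 3.58.1 in R 4.3.3, two-sided, with Benjamini-Hochberg adjustment over all probes. A RefSeq table (GRCm38.p6) named 26056 of 55681 probes, giving 19752 symbols; a gene was represented by its brightest probe on average across the 24 mRNA arrays. A bound ("at least") compares the bright age's mean with the dim age's, each dim array raised to its lowest well-detected signal.

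Named were the 15 largest fitted rises and 15 largest fitted falls (adjusted p under 0.05, well above background on all 3 arrays of an age, ages not overlapping), up to 4 called members of each of the 38 lists by p (2 where none passed), fixed genes (Gfap, C4b, Apod, Col1a1, Dcx, Ttr, Gh, Prl, Fos, Dbp, Snap25 and others) and the 5 largest in each direction of an interaction. Hba-a1, Hba-a2, Alas2, Nr1d1, Per1, Cry1, Cry2, Npas2, Clock, Arntl, Cldn5, Cdh5, Abcb1a, Ly6c1, Cst7, Cd9, Cd52, Hif3a, Zbtb16, Fosb, Slc18a3, Selplg, Insig1, Cryab, Hspa5, Sparc, Col5a2, Dcn and Sdhc were named after their values were seen. The members and lists were chosen with earlier results of these data known. The within-slide comparisons, and their values without 1 array, were added after seeing the data. Some genes that the rule names are not reported here. Fits were tested on simulated data.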

Additional observations from a re-analysis of the deposited data

Results flagged for a closer look

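The age difference in WT whole brain differed from that in WT cortex at 281 probes in limma's interaction test. The count was 0 without 10-month replicate 1 or any 1 of the 17-month replicates, 1 without 10-month replicate 2, 4 with a replicate block and 7 with slide as a term over 24 arrays. Among named genes the fitted values, as whole brain minus cortex on the log2 scale, were 3.45 for Hoxb5, 2.80 for Hoxb4, 1.55 for Fcmr, 1.41 for Ssxb10 and 1.19 for Tmem138 on the higher side. On the lower side they were -1.68 for Fbxw13, -1.42 for Gimap4, -1.32 for Tmprss3, -1.15 for Zfp791 and -1.13 for Ralgps1, with adjusted p from 0.0309 to 0.0434 over the 10. Hoxb5 and Hoxb4 were not well above background on any WT cortex or 10-month whole brain array, nor Ssxb10 on any 10-month whole brain or 17-month cortex array, so their values are not exact and have no rank. Gimap4 differed by -1.47 between the ages in whole brain and by -0.05 in cortex. In Tg2576 whole brain at 10 months the level on slide 3 minus that on slide 2 had the same sign as the value for Tmem138 (0.95), Fbxw13 (-0.63), Gimap4 (-0.86), Tmprss3 (-0.88), Zfp791 (-0.87) and Ralgps1 (-0.75). It had the opposite sign for Fcmr (-0.97) and for the inexact Hoxb5 (-2.17), Hoxb4 (-2.28) and Ssxb10 (-0.20). Of the 10 genes only Hoxb4 passed the interaction test with slide as a term over 24 arrays (adjusted p = 0.0351). Slide was fitted as a term, but how much of the results came from slide was not tested.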

How the results depend on the processing

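The count of probes called in WT whole brain stayed within 1.5 times of 10479 under quantile normalization (10824), median centring (10207), normexp (11270), the authors' table (10457), a filter of all 6 arrays (11124), models of 12 or 24 arrays and the methods' t-test (7577 after Benjamini-Hochberg, 14520 at an unadjusted p of 0.05). It fell to 5244 with no filter on dim probes, to 84 with slide as a term over 12 arrays and 960 over 24, and to 4760 with a replicate block. Same-numbered samples did not deviate together (correlations from -0.02 to 0.01), so the numbers do not pair them. Leaving out 1 array gave between 5336 and 7689 probes. Counts lower by over 1.5 times came without 10-month replicate 1 (6983) and without 17-month replicate 1 (5770), 2 (5336) or 3 (6136). The count of listed genes called, 149, became 81 with no filter, 1 and 32 with slide as a term over 12 and 24 arrays, 78 with a replicate block, and between 89 and 112 without 1 array (89, 89 and 97 without 17-month replicate 1, 2 and 3). These counts do not say that the genes were the same. Of the 38 list medians 5 had the opposite sign with slide as a term, 4 with normexp, and 2 each with quantile normalization and median centring. Up to 6 had it without 1 array (10-month replicate 1). A kept sign did not mean a kept size. Counted as moved were 21 medians with median centring, 20 with slide as a term, 8 with normexp and 3 with quantile normalization. The balance of directions moved too: 71.8% of the listed genes called were higher in the main analysis and 89.3% with median centring. The cause of these changes was not tested.

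With slide as a term 7 called genes changed sign: Insig1 (0.14), Abca1 (-0.0605), Olfml3 (-0.74), Tmem138 (-0.13), Zbtb16 (-0.0928), Zfp791 (0.16) and Ralgps1 (0.0184), the same values over 12 and 24 arrays. No called gene named here changed sign under another alternative. The age by genotype count of 0 became 10 with all 24 arrays in 1 model, 9 with slide as a term over the 12 whole brain arrays and 25 over 24 arrays (the last chosen after seeing the data), and was 0 without any 1 array. The age by tissue count of 281 became 168 with 24 arrays in 1 model, 4 with a replicate block and 7 with slide as a term over 24 arrays (chosen after seeing the data), and ran from 0 to 353 without 1 array: it was 0 without 10-month replicate 1 or any 17-month replicate, 1 without 10-month replicate 2 and 353 without 10-month replicate 3. With the 12 WT arrays alone slide could not be fitted, since slide 3 holds only the 17-month whole brain arrays. The number of arrays limits the precision.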
